A study of Mus musculus with 18 samples.

Results

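The Cyp3a family was followed in mouse liver RNA-seq as 8 genes, Cyp3a11, Cyp3a13, Cyp3a16, Cyp3a25, Cyp3a41a, Cyp3a41b, Cyp3a44 and Cyp3a59, out of 19057 lines of the expression table. They were chosen by symbol, and the choice was made with earlier results of these data known, among them those on Cyp3a44 in the HFD livers set against Con and A10-FMT. For these 2 comparisons the members are therefore described by their differences with no p value, and the number called is set beside the share of all genes with nothing read from it. A ninth symbol of the table that starts with Cyp3a, Cyp3a57, was not a member and is given beside the weakly read genes.

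The 18 libraries were livers of male ICR mice, an outbred strain, all 10 weeks old, with 3 livers in each of 6 groups. Con mice had a regular diet, and AOS mice had the regular diet with alginate oligosaccharide (AOS), a short-chain product of the seaweed polysaccharide alginate, at 10 mg/kg. HFD mice had a high-fat diet, and HFD+AOS mice had the high-fat diet with AOS at 10 mg/kg. Con-FMT and A10-FMT mice had the high-fat diet and oral gut microbiota (FMT), taken from control donors or from donors dosed with AOS at 10 mg/kg. The material of each kind of donor was small-intestinal content pooled over mice, so that all recipients of a group had the same inoculum. The feeding and transplant schedule is described by the study for 4 of the groups, and for AOS and HFD+AOS the diet and dose come from the labels alone. The titles number the livers, but nothing says whether a library came from a single mouse, so the p values measure the spread between these libraries.

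Enzymes of the cytochrome P450 3A family sit in the endoplasmic reticulum of hepatocytes and enterocytes, take electrons from NADPH through the reductase Por, and oxidize drugs, steroids and bile acids. Their genes are known targets of the xenobiotic receptors PXR (Nr1i2) and CAR (Nr1i3), which answer to drugs, steroids and bile acids, and need the hepatocyte factor Hnf4a. Cyp3a11 is the main drug-oxidizing member of adult mouse liver, Cyp3a13 is found in liver and intestine, Cyp3a16 is known from the fetal and newborn liver, and Cyp3a41 and Cyp3a44 are known as genes of the female liver.

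The family lies on chromosome 5 (RefSeq, GRCm38.p6, the assembly that mm10 names). Cyp3a13 stands alone at chr5:137892933-137925610, 7.42 Mb from the rest. The other 7 members and Cyp3a57 form a cluster of 769.8 kb at chr5:145345149-146114978, in which Cyp3a11 is at chr5:145854607-145879854, Cyp3a44 at chr5:145773983-145805891, Cyp3a41a at chr5:145694049-145720136, Cyp3a41b at chr5:145558664-145584732, Cyp3a16 at chr5:145436309-145469740, Cyp3a25 at chr5:145977192-146009644 and Cyp3a59 at chr5:146079208-146114978. All 8 are protein-coding genes with 13 exons in the GENCODE annotation. The coding sequences of Cyp3a41a and Cyp3a41b were 99.9% identical and differed at 2 positions. Cyp3a25 and Cyp3a59 were 97.5% identical, Cyp3a11 and Cyp3a44 94.9%, and Cyp3a13 was 75.1% to 76.8% identical to the other members.

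This likeness bears on how far the levels of single members can be told apart. Stretches of 50 bases were taken from a single transcript per gene, the one with the longest coding sequence. Of those of Cyp3a41a, 98.6% also stand in an annotated transcript of another Cyp3a gene, and 93.5% of those of Cyp3a41b. The share was 28.0% for Cyp3a59, 26.8% for Cyp3a25, 18.2% for Cyp3a44, 14.7% for Cyp3a11 and 10.5% for Cyp3a16, and it was 0.0% for Cyp3a13. The mapping allowed mismatches, so reads of these genes may have been counted for a paralog, and the levels of Cyp3a41a and Cyp3a41b in particular are uncertain.

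The sequences just before the transcript start are shown for the 5 tested members and for Cyp3a41a, the member closest to Cyp3a44 in coding sequence, so that likeness in sequence can be read beside likeness in level. Each is the 200 bases before the transcript start in a RefSeq promoter table (GRCm38.p6), read along the strand of the gene. The gene span given above reaches farther out than that start for Cyp3a13, Cyp3a25, Cyp3a44 and Cyp3a59, so that their stretches overlap the annotated gene, the one of Cyp3a13 wholly. Capitals mark CAAAGTCCA, a motif bound by Hnf4a, and AGGTCA, the core hexamer of many nuclear receptor sites, on either strand (where AGGTCA lies on the other strand it reads TGACCT).

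Cyp3a11 (chr5:145879855-145880054, strand -): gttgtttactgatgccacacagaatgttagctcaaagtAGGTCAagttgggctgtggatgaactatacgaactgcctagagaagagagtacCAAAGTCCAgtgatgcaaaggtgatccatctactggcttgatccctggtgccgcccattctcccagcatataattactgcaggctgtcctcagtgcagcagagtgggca
Cyp3a44 (chr5:145805875-145806074, strand -): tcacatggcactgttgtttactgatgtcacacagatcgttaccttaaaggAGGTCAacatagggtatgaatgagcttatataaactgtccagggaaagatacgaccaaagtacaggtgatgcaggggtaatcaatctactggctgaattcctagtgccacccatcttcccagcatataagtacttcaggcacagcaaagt
Cyp3a41a (chr5:145720137-145720336, strand -): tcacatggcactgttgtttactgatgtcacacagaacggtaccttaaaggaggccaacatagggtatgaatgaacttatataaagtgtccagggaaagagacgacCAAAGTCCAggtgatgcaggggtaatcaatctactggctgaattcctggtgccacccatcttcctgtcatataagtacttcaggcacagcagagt
Cyp3a25 (chr5:146009619-146009818, strand -): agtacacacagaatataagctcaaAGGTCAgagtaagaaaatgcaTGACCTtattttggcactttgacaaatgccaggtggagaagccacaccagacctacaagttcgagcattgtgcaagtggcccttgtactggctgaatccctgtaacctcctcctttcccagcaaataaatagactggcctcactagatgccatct
Cyp3a59 (chr5:146079058-146079257, strand +): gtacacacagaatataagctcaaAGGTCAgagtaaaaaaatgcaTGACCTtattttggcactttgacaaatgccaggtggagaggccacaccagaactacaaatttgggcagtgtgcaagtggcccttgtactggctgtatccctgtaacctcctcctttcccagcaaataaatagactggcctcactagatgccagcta
Cyp3a13 (chr5:137921620-137921819, strand -): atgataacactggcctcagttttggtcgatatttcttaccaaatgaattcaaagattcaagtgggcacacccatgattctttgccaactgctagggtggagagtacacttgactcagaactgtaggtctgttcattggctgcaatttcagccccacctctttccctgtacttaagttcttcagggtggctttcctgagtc

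In the 250 bases before the start, CAAAGTCCA was found in Cyp3a11, Cyp3a16, Cyp3a41a and Cyp3a41b. It was found in 0.381% of 27025 mouse promoters searched over the same stretch. Its first base lay at -109 in Cyp3a11, -99 in Cyp3a16 and -95 in both Cyp3a41 genes. Cyp3a44, whose 250 upstream bases were 94.4% identical to those of Cyp3a41a, had no exact match. AGGTCA, found in 13.8% of promoters, stood at -162 in Cyp3a11 and -150 in Cyp3a44. It occurred on both strands in Cyp3a25 (-176 and -155) and Cyp3a59 (-177 and -156), whose upstream bases were 94.8% identical. Cyp3a11 and Cyp3a44 were 72.1% identical upstream, and Cyp3a13 48.7% to 55.8% with the other members. AGTTCA, found in 11.9% of promoters, stood at -142 in Cyp3a11 and at -130 in both Cyp3a41 genes. The repeats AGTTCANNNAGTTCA (0.0% of promoters) and AGGTCANNNAGGTCA (0.00740%) and the STAT-type TTCNNNGAA (7.18%) had no match in the family. The motifs were chosen with the sequences in view, and a match describes letters, not binding.

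Values are RPKM (reads per kilobase of transcript, scaled to the reads of the library) as deposited, whose sum over all lines was 692303 to 806937 per library. The absolute depth is unknown. In 78 sparsely read genes, the mean step of a library was 0.968 to 1.03 of a common step. Genes were kept where their values lay near whole multiples of that step. This choice favours even depths, so the relative depth is not settled by it. The 7 hepatocyte markers summed to 47108 to 70559 RPKM, and the 8 intestinal markers to 38.9 to 116 RPKM, nearly all of it Fabp2, which liver also expresses. The third Con and the third AOS library stood apart in one respect. They lay between the other 2 livers of their group for 98.0% of 148 and 96.5% of 142 genes whose other 2 livers differed by at least 1 on the log2 scale, against 8.33% to 76.8% in the other 16 libraries. Whether these 2 libraries came from livers separate from the other 2 of their group was not tested. Means, SD and p values that use Con and AOS count each as a separate liver, so the spread there may be understated. Results are therefore also given without these 2 libraries where that changes a call. The Con livers further differed in acute phase genes, whose sum was 31578 RPKM in the first, 8619 in the second and 21281 in the third, against 5567 to 9960 in the other groups.

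Cyp3a11 was the leading member in regular-diet livers. It was read at 1710, 2585 and 2082 RPKM in Con (2126 ± 439, SD, n = 3) and at 3085, 2759 and 2973 RPKM in AOS (2939 ± 165). On the high-fat diet it was 235, 1033 and 1134 RPKM in HFD (800 ± 493), 162, 327 and 631 in HFD+AOS (374 ± 238), 313, 262 and 143 in Con-FMT (239 ± 87.3) and 179, 152 and 292 in A10-FMT (208 ± 74.5). All 12 high-fat livers lay below all 6 regular-diet livers, which held for this member alone of the family and for 0.238% of the 10507 genes tested. The livers of AOS were also all above those of Con, while the 4 high-fat groups overlapped from each neighbour in the order to the next. In bulk tissue, fewer cells of a kind and less RNA per cell cannot be told apart. Among the Con livers, the lowest level of Cyp3a11 was in the liver with the highest acute phase sum and the highest level in the liver with the lowest, and the part of the acute phase in these levels was not tested.

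Cyp3a25 and Cyp3a59, neighbours of opposite strand with near-identical sequence, had levels far apart and a like pattern. Cyp3a25, found in liver and intestine, was read at 419, 398 and 415 RPKM in Con (410 ± 11.2) and at 638, 559 and 596 in AOS (597 ± 39.2). It was 287, 465 and 524 RPKM in HFD (425 ± 123), 236, 401 and 416 in HFD+AOS (351 ± 100), 446, 272 and 159 in Con-FMT (293 ± 145) and 241, 308 and 382 in A10-FMT (311 ± 70.1). The AOS livers lay above those of HFD, the next group in the order, and the groups below them overlapped, so that, unlike Cyp3a11, its Con and HFD livers did not separate.

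Cyp3a59 was read at 15.8, 17.0 and 17.8 RPKM in Con (16.9 ± 0.993) and at 33.0, 33.9 and 35.4 in AOS (34.1 ± 1.22). It was 3.83, 19.2 and 21.2 RPKM in HFD (14.7 ± 9.49), 7.43, 6.47 and 9.62 in HFD+AOS (7.84 ± 1.61), 9.08, 6.97 and 3.76 in Con-FMT (6.60 ± 2.68) and 5.51, 5.42 and 7.04 in A10-FMT (5.99 ± 0.910). The AOS livers stood above every other liver of the series. The first HFD liver was the low one of its group, as it was for Cyp3a11, Cyp3a25 and Cyp3a44.

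Cyp3a13, the member outside the cluster, followed another order. It was read at 27.0, 23.4 and 27.3 RPKM in Con (25.9 ± 2.19), 12.1, 8.95 and 10.4 in AOS (10.5 ± 1.58), 22.3, 20.1 and 17.9 in HFD (20.1 ± 2.21) and 12.7, 8.11 and 7.72 in HFD+AOS (9.51 ± 2.77). It was 9.84, 29.2 and 12.2 RPKM in Con-FMT (17.1 ± 10.6) and 9.87, 10.6 and 12.3 in A10-FMT (10.9 ± 1.23). All 9 livers of the 3 groups tied to AOS thus lay below all 6 of Con and HFD. The share of all genes split in this way was not counted, so nothing is read from it. Con-FMT had 2 livers at the lower level and 1 above every other liver of the series.

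Cyp3a44 was weakly read outside a few livers. It was 0.59, 0.30 and 0.50 RPKM in Con (0.463 ± 0.148), 0.37, 2.15 and 1.65 in AOS (1.39 ± 0.918) and 0.32, 7.98 and 8.37 in HFD (5.56 ± 4.54). It was 0.17, 0.13 and 1.98 RPKM in HFD+AOS (0.760 ± 1.06), 0.55, 0.60 and 0.00 in Con-FMT (0.383 ± 0.333) and 0.17, 0.20 and 0.13 in A10-FMT (0.167 ± 0.0351). The second and the third HFD liver stood above the other 16, and neighbouring groups in the order of the means overlapped throughout. Cyp3a44 passed the filter through 5 livers at or above 1 RPKM.

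**Figure D1:**
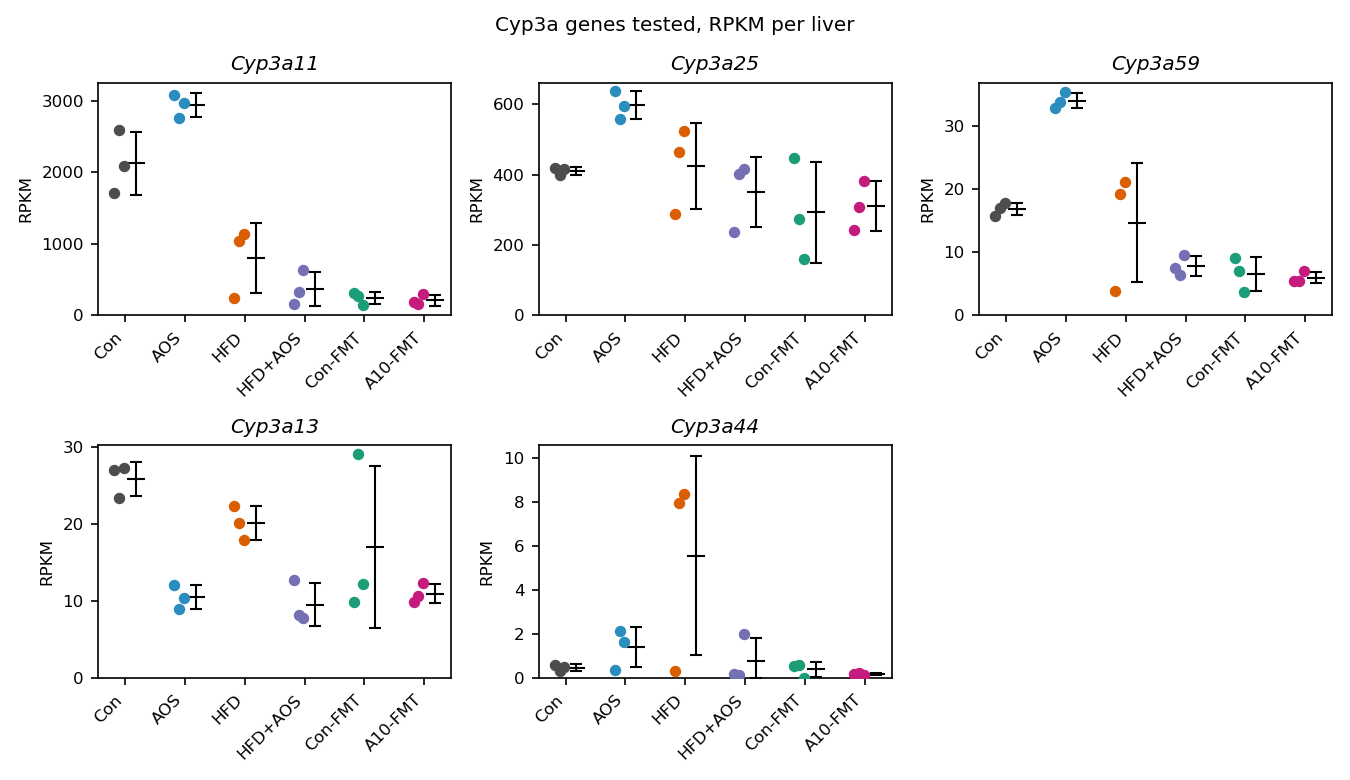
RPKM (y axis, linear from 0) of the 5 tested Cyp3a genes in each of 6 groups (x axis). Points are single livers, 3 per group, in the order of their numbers, and the bar beside them is the mean with its SD (cut at 0). All 12 high-fat livers lie below the 6 regular-diet livers for Cyp3a11, and the first HFD liver is the lowest of its group for Cyp3a11, Cyp3a25, Cyp3a59 and Cyp3a44.

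The remaining 3 members did not reach 1 RPKM in 3 livers and were not tested. Cyp3a16 was listed at 0 in 12 livers, all 6 of the regular diet among them, and at no more than 0.08 RPKM in the other 6. Cyp3a41b was 0.29, 0.69 and 0.34 RPKM in Con and 0.91, 0.58 and 0.85 in AOS. It was 0.20, 0.34 and 0.00 RPKM in HFD and 0.08, 0.00 and 0.28 in HFD+AOS, and it was listed at 0 in all 6 livers with transplanted microbiota. The regular-diet livers thus held the higher values, with an overlap between the Con and HFD livers.

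Cyp3a41a was listed at 0 in 7 livers and did not exceed 0.60 RPKM in 17 of the 18 livers. The exception was the second Con-FMT liver at 2.96 RPKM. The same liver also held the highest Cyp3a13, and other genes known from the female liver were read in it, with the sulfotransferases Sult2a1 and Sult3a1 at 7.30 and 2.80 RPKM, against at most 0.56 and 0.22 RPKM in the other 17 livers. The 12 listed female-biased genes outside the family summed to 30.6 RPKM in that liver and to 2.96 to 102 RPKM over all livers, and Cux2, a defining female-biased factor, did not exceed 0.11 RPKM anywhere. The part of these values in the Cyp3a41a level was not tested. Cyp3a41a and Cyp3a41b, which share nearly all their sequence, were both above 0 in 4 livers, while Cyp3a41a alone was in 7, Cyp3a41b alone in 6 and neither in 1. The non-member Cyp3a57 was read at 0.13 to 0.52 RPKM in all 18 livers.

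**Figure D2:**
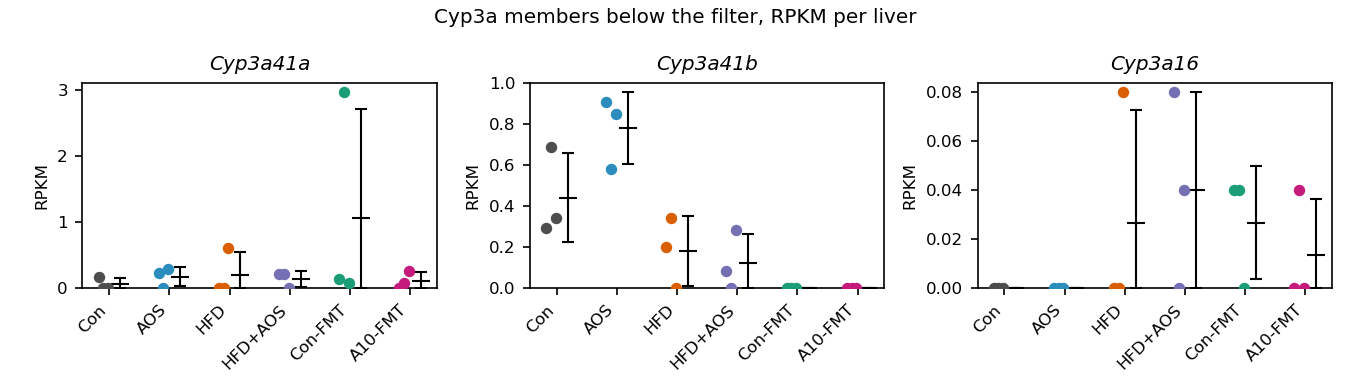
RPKM (y axes, linear from 0, with a scale of their own) of the 3 untested members by group (x axis). Points are single livers and the bar is the mean with its SD, cut at 0. Cyp3a41a stands out in the second Con-FMT liver at 2.96 RPKM, Cyp3a41b is at 0 in all livers of Con-FMT and A10-FMT, and Cyp3a16 does not exceed 0.08 RPKM.

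The make-up of the family differed between the diets. Cyp3a11 gave 78.7% to 85.5% of the summed RPKM of the 8 members in Con and 81.8% to 82.2% in AOS. It gave 42.8% in the first HFD liver and 66.8% and 66.5% in the other two, 38.8% to 59.2% in HFD+AOS, 40.2% to 45.7% in Con-FMT and 31.9% to 42.1% in A10-FMT. Nearly all of the rest was Cyp3a25, at 13.2% to 19.3% in Con and 55.0% to 64.7% in A10-FMT. Cyp3a11 exceeded Cyp3a25 in all 6 regular-diet livers, by 4.08 to 6.50 times, and was below it in all 6 livers with transplanted microbiota, at 0.494 to 0.963 times. High-fat livers without a transplant lay on both sides. Cyp3a11 was there 0.817, 2.22 and 2.17 times Cyp3a25 in HFD, and 0.689, 0.815 and 1.52 times in HFD+AOS. The whole family made up 0.269% to 0.525% of all RPKM in regular-diet livers and 0.0441% to 0.236% in high-fat livers. Cyp3a11 ranked 27th to 52nd among all genes by RPKM in the former and 68th to 551st in the latter.

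Within the groups, the 4 tested members of the cluster varied together to differing degrees. Over the deviations of 18 livers from their group means on the log2 scale, Pearson's r was 0.880 between Cyp3a44 and Cyp3a59, 0.858 between Cyp3a11 and Cyp3a59, 0.802 between Cyp3a11 and Cyp3a25, 0.798 between Cyp3a11 and Cyp3a44, 0.714 between Cyp3a25 and Cyp3a59 and 0.539 between Cyp3a25 and Cyp3a44. For Cyp3a13 it was -0.261 to -0.122 with the other 4. All 4 cluster members were lowest within HFD in its first liver, where Cyp3a44 was 0.32 and Cyp3a59 3.83 RPKM. Its group mates held 7.98 and 8.37 RPKM of Cyp3a44, and 19.2 and 21.2 RPKM of Cyp3a59. How far the r values rest on the first HFD liver was not tested. They are descriptions over values that share a library, and paralogs that share sequence may share reads. Cyp3a13 shares none of the 50-base stretches.

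**Figure D3:**
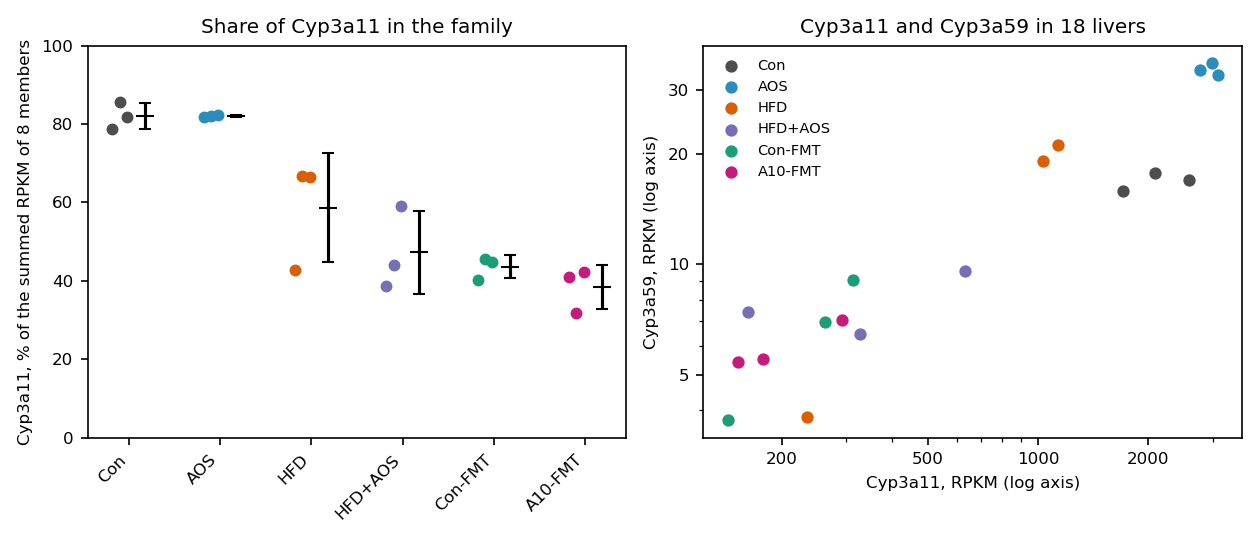
Left, share of Cyp3a11 in the summed RPKM of the 8 members (%, y axis from 0 to 100) per liver, with mean and SD beside the 3 points of each group (x axis). Right, RPKM of Cyp3a59 (y axis) against Cyp3a11 (x axis), both on log axes, with 1 point per liver. The share is 78.7% or more in regular-diet livers and 66.8% or less in high-fat livers.

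The comparison of HFD with Con asks what the high-fat diet does to the liver, and it is one of those known when the family was chosen. The mean of Cyp3a11 was 2.66 times higher in Con, and its log2 difference (HFD minus Con, on log2(RPKM + 1) here and below) was -1.69 ± 0.53 (SE). It was 1.72 ± 0.57 for Cyp3a44, -0.47 ± 0.41 for Cyp3a59, -0.35 ± 0.27 for Cyp3a13 and 0.01 ± 0.31 for Cyp3a25. Of the 5 tested members 0 passed an adjusted p of 0.05 (limma), where 0.381% of all genes did, and nothing is read from this count, with 2 members and 1623 genes at an unadjusted p under 0.05. Without the first HFD liver, Cyp3a11 was at -0.95, Cyp3a44 at 2.65 and Cyp3a59 at 0.24. That liver was also the lowest of its group for the reductase Por, at 21.5 RPKM against 51.02 and 51.01 in the others, and the part of this in the difference was not tested. Of the 10 acute phase genes, 4 were called in HFD against Con, all lower in HFD. Saa2, Saa3 and Saa1 came first by adjusted p, under 0.05 in 8, 4 and 3 of 12 alternatives. None was called without the third Con and the third AOS library, and their part in the member differences was not tested.

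HFD+AOS against AOS compares the same diets in mice that were all given AOS, and it shares no liver with the comparisons that were known, although the spread is estimated over all groups. Cyp3a11 fell in it by 3.18 on the log2 scale (SE 0.53, limma adjusted p = 0.00258), a mean 7.87 times lower, with all 3 livers on the high-fat diet below the 3 on the regular diet. Cyp3a59 fell by 2.004 (SE 0.41, adjusted p = 0.00932), a mean 4.35 times lower and again without overlap. Livers of the groups did not overlap for 28.7% of all genes tested. Cyp3a25 was at -0.81 (SE 0.31, adjusted p = 0.145), also with no overlap, and Cyp3a44 at -0.51 (adjusted p = 0.656) and Cyp3a13 at -0.15 (adjusted p = 0.804) overlapped. Thus 2 of 5 tested members passed, both lower, where 5.44% of all genes passed and 2.93% were lower. The median difference was -0.81 for the 5 members and -0.03 for all genes tested. The call of Cyp3a11 held in all 12 alternatives (adjusted p 0.00174 to 0.0285), and that of Cyp3a59 was lost without the third Con and the third AOS library (-1.98, adjusted p = 0.0628), leaving 1 member.

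**Figure D4:**
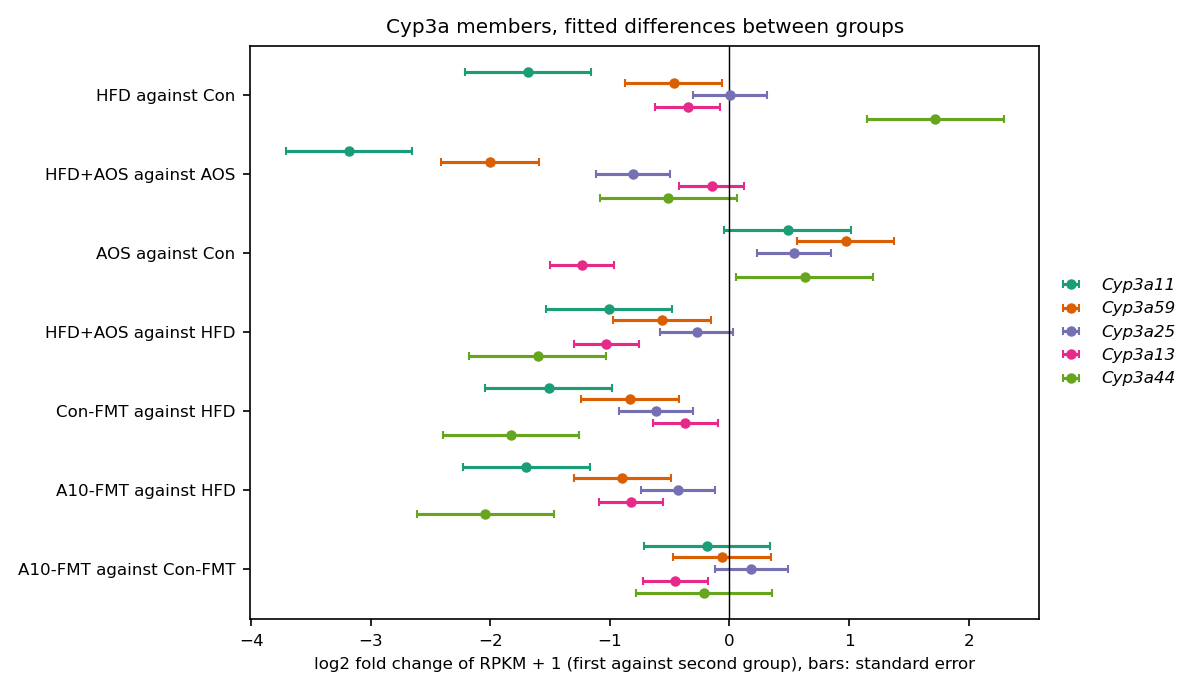
Fitted log2 differences of RPKM + 1 (x axis, first group minus second, bars are SE) of the 5 tested members in 7 comparisons (y axis). Cyp3a11 and Cyp3a59 are farthest below 0 in HFD+AOS against AOS, at -3.18 and -2.004, and Cyp3a13 is lower in both comparisons of AOS with its diet control, at -1.23 and -1.03.

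AOS on the regular diet was compared with Con. The Con livers are those of a comparison known when the family was chosen, so the member values here are a description too. The means of Cyp3a59 and Cyp3a25 were 2.02 and 1.46 times higher in AOS and that of Cyp3a11 1.38 times, each with the 3 AOS livers above the 3 Con livers, while the mean of Cyp3a13 was 2.47 times lower, again without overlap. Such a separation was seen for 24.7% of all genes tested. None of these differences passed the test over all genes, with log2 differences of 0.97 (SE 0.41, limma adjusted p = 0.264) for Cyp3a59, 0.54 (SE 0.31, adjusted p = 0.422) for Cyp3a25, 0.49 (SE 0.53, adjusted p = 0.699) for Cyp3a11, 0.63 (SE 0.57, adjusted p = 0.630) for Cyp3a44 and -1.23 (SE 0.27, adjusted p = 0.0754) for Cyp3a13. In all, 0 members were called and 0.133% of all genes, with 2 members and 1633 genes at an unadjusted p under 0.05. When the fit held only these 2 groups, Cyp3a13 (adjusted p = 0.00974) and Cyp3a59 (adjusted p = 0.00480) passed, in a fit whose spread rests on the groups that hold the third Con and the third AOS library. Of the 10 acute phase genes, Saa2 and Saa3 were called, both lower in AOS, under 0.05 in 6 and 3 of 12 alternatives and neither without the third Con and the third AOS library, and their part in the member differences was not tested.

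HFD+AOS against HFD asks what AOS does on the high-fat diet. Cyp3a13 fell by 1.03 on the log2 scale (SE 0.27, limma adjusted p = 0.0295), from 20.1 to 9.51 RPKM. It was the single member called of 5 tested, where 8.75% of all genes were called and 4.58% were lower, and its adjusted p was 0.0230 to 0.0885 over 12 alternatives, under 0.05 in 5 of them. Cyp3a11 (-1.01, SE 0.53, adjusted p = 0.239), Cyp3a44 (-1.61, SE 0.57, adjusted p = 0.0903), Cyp3a59 (-0.56, adjusted p = 0.407) and Cyp3a25 (-0.28, adjusted p = 0.617) overlapped between the groups. Without the first HFD liver, Cyp3a13 was at -0.96 and was not called (adjusted p = 0.0569). The differences then were -1.74 for Cyp3a11, -2.54 for Cyp3a44 and -1.27 for Cyp3a59, all 3 past the threshold. The HFD livers are those of the comparisons known when the family was chosen. The member values here, that of Cyp3a13 included, are therefore a description, and nothing is read from their calls.

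The effect of AOS was also compared between the diets. The difference of the effects (high-fat minus regular) was -2.23 for Cyp3a44 (limma adjusted p = 0.223), -1.54 for Cyp3a59 (adjusted p = 0.236), -1.50 for Cyp3a11 (adjusted p = 0.372), -0.81 for Cyp3a25 (adjusted p = 0.403) and 0.20 for Cyp3a13 (adjusted p = 0.838). None of the 5 passed, 0.504% of all genes did, and 2 members and 1541 genes had an unadjusted p under 0.05. For Cyp3a13 the AOS effects were -1.23 and -1.03 on the 2 diets. Without the first HFD liver, the difference was -2.25 for Cyp3a59 and -3.17 for Cyp3a44, both past the threshold and again a description, since the HFD livers are shared with the known comparisons.

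The transplants were compared with HFD alone and with each other. A10-FMT against HFD was known when the family was chosen. There the log2 differences were -2.04 ± 0.57 for Cyp3a44, -1.70 ± 0.53 for Cyp3a11, -0.90 ± 0.41 for Cyp3a59, -0.82 ± 0.27 for Cyp3a13 and -0.43 ± 0.31 for Cyp3a25. Of the 5 members 1, Cyp3a44, was called, where 6.60% of all genes were called and 3.98% were lower in A10-FMT, and nothing is read from this count, which reuses the values behind the choice. That call was made in 3 of 12 alternatives. Without the first HFD liver, the differences were -2.98 for Cyp3a44, -2.43 for Cyp3a11 and -1.61 for Cyp3a59. The means of Con-FMT lay on the same side of HFD, at -1.83 ± 0.57 for Cyp3a44, -1.51 ± 0.53 for Cyp3a11, -0.83 ± 0.41 for Cyp3a59, -0.61 ± 0.31 for Cyp3a25 and -0.37 ± 0.27 for Cyp3a13. Both comparisons share the HFD livers. In Con-FMT against HFD the adjusted p was 0.593 to 0.843, 0 members and 0.00952% of all genes were called by limma, and 2 members and 697 genes had an unadjusted p under 0.05. With that liver left out, Cyp3a44 was at -2.76 and Cyp3a59 at -1.54 in Con-FMT against HFD, both past the threshold and likewise a description.

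Between A10-FMT and Con-FMT, which differ in the donors of the microbiota, no difference in a member was detectable. The A10-FMT livers are those of a comparison known when the family was chosen, so these member values are likewise a description. The log2 differences were -0.45 (SE 0.27) for Cyp3a13, -0.21 (SE 0.57) for Cyp3a44, -0.19 (SE 0.53) for Cyp3a11, -0.06 (SE 0.41) for Cyp3a59 and 0.18 (SE 0.31) for Cyp3a25, with limma adjusted p values of 0.423 to 0.957. Of the 5 members 0 were called and 0 had an unadjusted p under 0.05, where 1.68% of all genes were called and 1727 had such a p. The second Con-FMT liver, at 29.2 RPKM, set the Cyp3a13 mean of its group.

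The genes around the family were read in 14 lists of 161 genes, 144 of them tested. These lists too were drawn up with earlier results known. No set test was run, and counts of list genes are to be read beside the share of all genes called. PXR itself (Nr1i2) was read at 19.5 to 33.1 RPKM in all livers, and was not called in any of the 8 comparisons. CAR (Nr1i3) was 46.9 ± 14.4 RPKM in Con, 58.8 ± 7.61 in AOS, 51.4 ± 3.72 in HFD, 85.3 ± 4.73 in HFD+AOS, 62.7 ± 13.2 in Con-FMT and 111 ± 49.4 in A10-FMT. In A10-FMT livers it rose by 1.00 over HFD (limma adjusted p = 0.0319, under 0.05 in 5 of 12 alternatives). Por, which hands electrons to every P450 of the endoplasmic reticulum, rose in A10-FMT by 1.35 over HFD (adjusted p = 0.0134, under 0.05 in 9 of 12 alternatives), from 41.2 ± 17.1 to 105 ± 44.3 RPKM, and by 1.34 against Con-FMT (adjusted p = 0.0309, in 4 of 12). Both means were highest in A10-FMT. These are RNA levels, not activities, and the part of Nr1i3, Por and the other listed genes in the Cyp3a levels was not tested.

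Of 24 other known targets of PXR and CAR, 21 were tested. In HFD+AOS against AOS, 3 of them were called lower and 0 higher, where 5.44% of all genes were called and 2.93% were lower. The median difference was -0.46 against -0.03 for all genes. Cyp2c29, an abundant P450, fell from 1073 ± 28.4 to 423 ± 45.4 RPKM (log2 -1.35, adjusted p = 0.00535). Cyp2b10, the classical CAR target, fell from 6.36, 1.25 and 3.06 RPKM in AOS to 0.11, 0.03 and 0.18 in HFD+AOS (log2 -1.88, adjusted p = 0.00941, and 0.0592 without the third Con and the third AOS library). Cyp2c55 fell from 1.35 ± 0.165 to 0.240 ± 0.0781 RPKM (log2 -0.92, adjusted p = 0.00249). Cyp2b10 was also at 0.04, 0.07 and 0.00 RPKM in A10-FMT. In the other comparisons 0 of the 21 were called lower. The one called higher was the transporter Abcc2 in HFD against Con (0.54, limma adjusted p = 0.0414, under 0.05 in 3 of 12 alternatives), where 0.381% of all genes were called. The median of the 21 was -0.27 in A10-FMT against HFD, -0.29 in Con-FMT against HFD and 0.50 in AOS against Con. For all genes it was -0.03, -0.002 and 0.07. The list median was -0.55 for the difference between diets (all genes -0.08) and -0.08 to 0.05 in the rest.

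**Figure D5:**
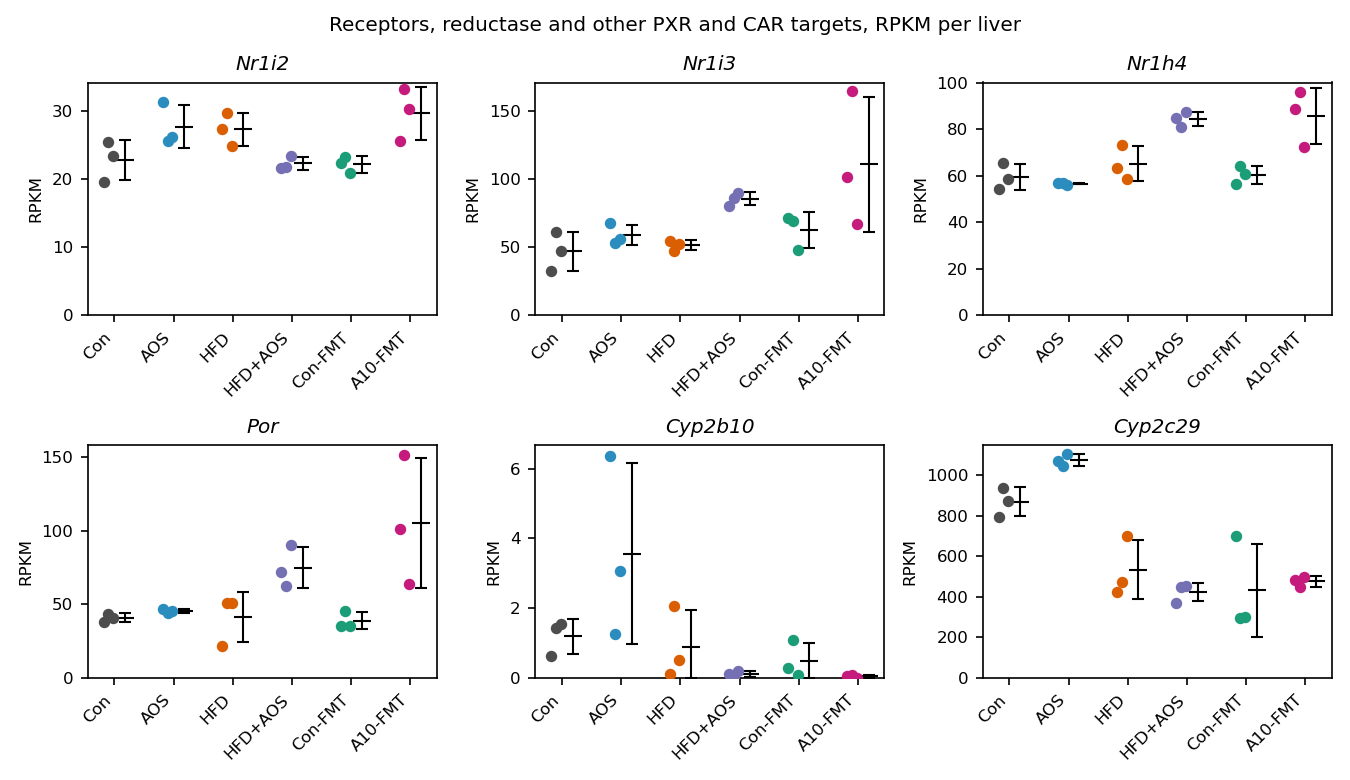
RPKM (y axes, linear from 0) of the receptors Nr1i2 (PXR), Nr1i3 (CAR) and Nr1h4 (FXR), the reductase Por and the PXR and CAR targets Cyp2b10 and Cyp2c29 by group (x axis). Points are single livers and the bar is the mean with its SD, cut at 0. Nr1i3 and Por are highest in A10-FMT (means of 111 and 105 RPKM), and Cyp2c29 is highest in AOS (1073 RPKM).

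Of the 17 listed regulators of Cyp3a transcription, 15 were tested. The share of all genes called was 5.44% in HFD+AOS against AOS and 8.75% in HFD+AOS against HFD. It was 6.60% in A10-FMT against HFD and 1.68% in A10-FMT against Con-FMT. In HFD+AOS against AOS the bile acid receptor Nr1h4 (0.57, limma adjusted p = 0.00526) and the fatty acid receptor Ppara (0.75, adjusted p = 0.00578) were called higher and 0 lower. In HFD+AOS against HFD, Ppara (0.87, adjusted p = 0.00200), Cebpa (0.62, adjusted p = 0.0263) and Nr1h4 (0.38, adjusted p = 0.0378) rose and Hnf4a fell by 0.26 (adjusted p = 0.0473), the last under 0.05 in 3 of 12 alternatives. Of these calls, that of Ppara held in all 12 alternatives. In A10-FMT livers Ppara, Cebpa, Nr1h4 and Nr1i3 rose over HFD (0.39 to 1.00, adjusted p 0.0181 to 0.0377), and over Con-FMT the 1 called was Nr1h4 (0.49, adjusted p = 0.0285, under 0.05 in 5 of 12). No regulator was called in HFD against Con, Con-FMT against HFD or AOS against Con. Hnf4a was read at 96.2 to 131 RPKM in all livers.

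For the lists that follow, the share of all genes called was 6.60% in A10-FMT against HFD and 1.68% in A10-FMT against Con-FMT. It was 8.75% in HFD+AOS against HFD and 5.44% in HFD+AOS against AOS. Single calls are named as such, and nothing is read from them about a list. Among the 14 genes for electron transfer and haem supply, Por was the one called in the transplant comparisons, and Uros, of haem synthesis, in HFD+AOS against AOS (-0.36, limma adjusted p = 0.0493, under 0.05 in 1 of 12 alternatives). Alas1, the rate-limiting enzyme of haem synthesis, ran from 11.98 to 129 RPKM over single livers and was not called. In the 9 genes of the growth hormone axis, which sets the sexual pattern of several Cyp3a genes, 0 were called higher in any comparison. Stat5b fell in A10-FMT against HFD (-0.66, limma adjusted p = 0.000396), HFD+AOS against HFD (-0.43, adjusted p = 0.00944), HFD+AOS against AOS (-0.53, adjusted p = 0.00290) and A10-FMT against Con-FMT (-0.53, adjusted p = 0.00536). Stat5a also fell in the first of these (-0.55, adjusted p = 0.0282, under 0.05 in 5 of 12 alternatives) and Egfr in the second (in 12 of 12). Of 16 male-biased genes Elovl3 fell in these 4 comparisons, by 1.78 to 3.14 (adjusted p 1.54e-05 to 0.00249), with Selenbp2 beside it in HFD+AOS against HFD (under 0.05 in 5 of 12 alternatives), while Cyp2d9 was at 640 to 1230 RPKM and was not called. Of 12 female-biased genes 6 were tested, and Acot3 alone was called, higher in HFD+AOS against HFD (1.58, adjusted p = 0.0485, under 0.05 in 2 of 12 alternatives). The 10 listed genes of bile acid synthesis and hydroxylation, Cyp7a1 among them, had 0 calls by limma in any comparison. Of 10 pericentral genes, the zone in which Cyp3a11 is known to be strongest, 2 were called higher in HFD+AOS against AOS and 0 lower. The 2 were Cyp2e1 (0.89, limma adjusted p = 0.00165) and Glul (0.43, adjusted p = 0.0299, under 0.05 in 5 of 12 alternatives). Cyp2e1 (0.63, adjusted p = 0.0128) and Glul (0.40, adjusted p = 0.0324, in 5 of 12) also rose in HFD+AOS over HFD. In A10-FMT against HFD, Cyp2e1 rose (0.70, adjusted p = 0.00786) and Axin2 fell (-0.57, adjusted p = 0.0239, in 8 of 12), and against Con-FMT Cyp1a2 rose (0.46, adjusted p = 0.0322, in 6 of 12). The 8 periportal and the 9 Kupffer and macrophage markers had 0 calls in any comparison, and of 10 endothelial and stellate markers Reln was called once, higher in HFD+AOS against AOS (0.68, adjusted p = 0.0224, under 0.05 in 7 of 12 alternatives). Of 7 hepatocyte markers Tdo2 was called once, higher in HFD+AOS against HFD (0.55, adjusted p = 0.0454, in 3 of 12). Fga, of the 10 acute phase genes, was called lower in A10-FMT against HFD and in HFD+AOS against HFD. It was under 0.05 in 9 and 5 of 12 alternatives. The part of Reln, Tdo2 and Fga in the Cyp3a differences was not tested.

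The genes whose levels were most like those of 2 members over the 18 livers are given as a description. For Cyp3a11 they were the choline transporter Slc44a1 (Pearson's r on the log2 scale 0.942, Spearman's rho 0.837), Cyp2c55 (0.923 and 0.883), Raet1e (0.921 and 0.868), the acetyl-CoA carboxylase Acacb (0.921 and 0.839) and Zfp385a (0.917 and 0.829). All 5 were lower in the means of the high-fat groups than in both regular-diet groups, and the livers of the 2 diets form separate clouds of points for Cyp3a11. For Cyp3a44 they were Phkb (r 0.883, rho 0.525), Klhdc2 (0.873 and 0.606), Irs2, an adaptor of the insulin receptor (0.862 and 0.876), Elavl1 (0.831 and 0.857) and Ruvbl1 (0.831 and 0.741). The 2 HFD livers with 7.98 and 8.37 RPKM of Cyp3a44 lie far from the other points, and values of a liver share its diet, library and depth.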

How the data were processed

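Liver RNA was measured by RNA-seq (Illumina) in 18 libraries, 3 in each of 6 groups taken from the sample titles. SOAPaligner was the aligner of the study's methods, and the authors deposited RPKM with 2 decimals under gene symbols, 19057 lines in all, where 3 symbols occur more than once. The submitters' processing notes name mm10 and Bowtie 0.12.2 instead of SOAPaligner, and which made the table was not settled. Read numbers were not beside the values, so DEGseq and other count tests were not run, and the precision of low values is unknown.

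Genes at 1 RPKM or more in at least 3 libraries were tested, 10507 of 17109 with a value above 0. The fit was made on log2(RPKM + 1), which understates changes of low genes, with a mean for each group over all 18 libraries (limma 3.58.1, lmFit and eBayes with trend, R 4.3.3), with Benjamini-Hochberg adjusted p over all genes of a comparison, called under 0.05. The code was tested on simulated data. Alternatives were a pseudocount of 0.1, no filter, equal library medians, only the groups compared, a replicate block, and libraries left out, 12 per comparison and 18 for the difference between diets.

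The members, lists and motifs were chosen with earlier results of these data known. Named were all members, 9 fixed regulators and partners, from each list up to 3 called genes with the smallest adjusted p, and the 5 genes most like Cyp3a11 and Cyp3a44. Sequences and places are from RefSeq (GRCm38.p6, 9 of 9 Cyp3a symbols matched), and transcripts from GENCODE M21 were compared with Biopython 1.88. Same-numbered replicates were checked for pairing, with correlations of -0.177 to 0.225 and 0 of 7 comparisons with every one over 0.1.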

Additional observations from a re-analysis of the deposited data

Results flagged for a closer look

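The effect of AOS on Stat5b, a transcription factor of the growth hormone axis, differed between the diets (log2 difference of the effects -0.69, limma adjusted p = 0.0174, and 0.00535 to 0.165 over 18 alternatives, under 0.05 in 11). Stat5b was 13.5 ± 0.471 RPKM in Con, 16.4 ± 0.731 in AOS, 15.2 ± 0.594 in HFD and 11.1 ± 0.906 in HFD+AOS. It was higher in all 3 AOS livers than in the Con livers and lower in all 3 HFD+AOS livers than in the HFD livers. No Cyp3a gene met this test.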

How the results depend on the processing

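The fold changes followed were those of the tested members and of the list genes called in a comparison. Leaving out members in the 2 comparisons known when the family was chosen, they kept their direction and side of the threshold in 735 of 972 repeats. Signs turned when a single replicate was left out: for HFD against Con, Cyp3a59 went from -0.86 to 0.24, above 0 without the first HFD liver, and Cyp3a25 ran from -0.17 to 0.26 over all alternatives, for A10-FMT against Con-FMT, Cyp3a11 went from -0.52 to 0.0431, Cyp3a59 from -0.37 to 0.17 and Cyp3a25 from -0.19 to 0.55, where Con-FMT replicates 1 to 3 and A10-FMT replicate 2 turned the sign, and for the difference of the AOS effect Cyp3a13 went from -0.00458 to 0.32, below 0 without HFD+AOS replicate 1.

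Members called numbered 0 instead of 1 for A10-FMT against HFD with a pseudocount of 0.1, with no filter, and without the third Con and AOS libraries. For HFD+AOS against HFD they numbered 0 instead of 1 with no filter and without those libraries, for AOS against Con 2 instead of 0 with only the groups compared, and for HFD+AOS against AOS 1 instead of 2 without those libraries. With a single replicate left out they numbered 0 to 3 for A10-FMT against HFD, 0 to 3 for HFD+AOS against HFD, 0 to 2 for Con-FMT against HFD, 0 to 1 for HFD against Con and 0 to 2 for the difference between diets, the upper end each time without the first HFD liver.

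The list genes called were 5 for HFD against Con (1 with no filter, 0 with only the groups compared, 0 without the third Con and AOS libraries), 11 for A10-FMT against HFD (2 with only the groups compared, 7 without those libraries), 5 for A10-FMT against Con-FMT (3 with no filter, 1 with only the groups compared, 2 without those libraries) and 2 for AOS against Con (1 each with no filter, equal medians and only the groups compared, 0 without those libraries). They were 13 for HFD+AOS against HFD (8, 6 and 5 in the same order, with no filter, only the groups compared, and without those libraries) and 11 for HFD+AOS against AOS (25 with only the groups compared, 7 without those libraries). With a single replicate left out they were 0 to 15, 5 to 23, 2 to 11, 0 to 13, 6 to 16 and 8 to 11 in the same order of comparisons, and 0 to 1 for Con-FMT against HFD. The causes were not tested.

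The replicate numbers only name libraries. With the replicate block, the list genes called for HFD against Con were 2 instead of 5, the member calls were 2 for HFD+AOS against AOS as without it, and no other count moved by over 1.5 times. Depth is unknown, so levels under about 1 RPKM have no stated precision.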
